A study of Mus musculus with 4 samples.

Results

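The genes described here are 9 transcripts that act as a brake on mitogen-activated protein kinase (MAPK) signalling: the MAPK phosphatases Dusp1, Dusp2, Dusp4, Dusp5, Dusp6 and Dusp16, the Sprouty genes Spry1 and Spry2, and the Sprouty-related gene Spred1. They were chosen by name, as genes whose transcription reports on ERK, JNK and p38 activity, and all 9 were found among the 21878 genes of the count table. RNA was sequenced from bone marrow-derived macrophages of C57BL/6 mice, grown with M-CSF and then cocultured for 48 h, as the sample labels give it (the study's own text gives a shorter time), with MC38 mouse colon carcinoma cells held in a transwell insert. A total of 2 libraries came from wild type (WT) mice and 2 from anti-Act1 mice, all labelled 8 weeks of age, and both groups shared the coculture. Anti-Act1 is a macrophage-specific knockdown of Act1, the adaptor that links the IL-17 receptor to NF-κB and JNK. The promoter that drives the knockdown is not given in the sources used here, and no library without MC38 cells was analysed.

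ERK, JNK and p38 are switched on when an upstream kinase phosphorylates a threonine and a tyrosine in their activation loop, and MAPK phosphatases switch them off by removing both phosphates. Many of these phosphatases are immediate-early or delayed-early genes of the same kinases, so the pathway induces its own inhibitor. Sprouty and Spred proteins act further upstream, between receptor tyrosine kinases, RAS and RAF. In macrophages Dusp1 is known as the phosphatase that limits p38 and JNK after Toll-like receptor stimulation.

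The targeted transcript Traf3ip2, which encodes Act1, had 6.98 and 7.54 CPM (counts scaled to library size, with TMM factors) in the WT libraries, and the libraries labelled anti-Act1 had 9.63 and 7.84 CPM (edgeR adjusted p = 0.117). Without anti-Act1 replicate 2 it was called higher (log2 fold change 0.41, edgeR adjusted p = 0.0343). Traf3ip2 was thus not lower in these libraries, and each direction below rests on the labels. The study reports reduced Act1 expression in bone marrow-derived macrophages of anti-Act1 mice, measured apart from this sequencing. The library kit as named does not mark strand, so sense and antisense reads of Traf3ip2 cannot be told apart. Library totals were 55435063 to 75062945 counts, with both WT libraries deeper. All 8 macrophage markers were above 1 CPM, and their summed level overlapped between groups (23172 to 24054 CPM in WT and 23584 to 24450 CPM in anti-Act1). Most of that sum was Lyz2, which was not called, and 3 of the 8 were called lower in anti-Act1 by edgeR: Mrc1 (log2 fold change −0.63, adjusted p = 5.57e-14), Mertk (−0.40, adjusted p = 4.09e-08) and Itgam (−0.31, adjusted p = 3.96e-06). Of the 6 epithelial markers, Krt8 and Krt18 were at 0 in every library and the sum was at most 0.464 CPM. The fibroblast and erythroid lists summed to at most 0.476 and 0.290 CPM and the dendritic cell list to 4.26 to 5.31 CPM, with overlapping groups. Sums of other lists did not overlap between the groups. The neutrophil list was at 5.78 to 6.04 CPM in WT and 6.37 to 7.16 CPM in anti-Act1. In it S100a8 was called higher (0.66) and S100a9 lower (−1.42). The T cell list was at 25.2 to 25.6 CPM in WT and 27.3 to 31.0 CPM in anti-Act1, nearly all of it Cd4. Cd4 was called higher (0.21, edgeR adjusted p = 0.0358), while Cd3e, Cd3d, Cd3g and Cd8a had at most 6 counts in any library. The B cell list, mostly Cd79b, was at 2.91 to 3.18 CPM in WT and 3.69 to 4.03 CPM in anti-Act1. The mast cell list was at 0.139 to 0.198 CPM in WT and 0.0324 to 0.0916 CPM in anti-Act1. The Y-linked genes Ddx3y, Eif2s3y, Uty and Kdm5d together had 14705 and 18675 counts in WT and 1 and 0 counts in anti-Act1. Y-linked genes were thus expressed in the WT libraries only, so a difference of sex between the groups cannot be told apart from the anti-Act1 label. The part of these values in the results below was not tested.

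The sequences just before the start of transcription are shown for 4 members, of which Dusp1 was called higher, Spred1 lower, and Dusp5 and Dusp6 in neither direction. Of these, Dusp1 and Dusp5 hold letters of the elements marked below, which are known to answer to kinases. Dusp6 and Spred1 hold none of the marked elements. RefSeq (GRCm38.p6) held a promoter for 8 of the 9 members, and the entry for Dusp4 was missing. Each line below gives the 250 bases before the annotated start, read 5′ to 3′ on the strand of the gene, and capitals mark cAMP response elements (CRE, TGACGTCA, or its core TGACG) and serum response elements (the CArG box), sought on both strands.
Dusp1, chr17:26508473-26508722, strand -: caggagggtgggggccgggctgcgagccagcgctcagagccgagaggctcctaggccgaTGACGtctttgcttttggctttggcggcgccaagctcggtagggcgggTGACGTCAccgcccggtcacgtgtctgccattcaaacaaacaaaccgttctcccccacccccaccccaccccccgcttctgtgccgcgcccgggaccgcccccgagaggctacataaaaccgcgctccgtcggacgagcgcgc
Dusp5, chr19:53528895-53529144, strand +: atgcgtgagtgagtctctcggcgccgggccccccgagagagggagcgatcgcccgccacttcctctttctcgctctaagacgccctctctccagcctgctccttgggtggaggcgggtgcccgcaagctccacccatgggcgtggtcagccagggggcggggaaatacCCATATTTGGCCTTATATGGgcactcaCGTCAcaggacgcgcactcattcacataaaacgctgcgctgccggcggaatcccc
Dusp6, chr10:99262981-99263230, strand +: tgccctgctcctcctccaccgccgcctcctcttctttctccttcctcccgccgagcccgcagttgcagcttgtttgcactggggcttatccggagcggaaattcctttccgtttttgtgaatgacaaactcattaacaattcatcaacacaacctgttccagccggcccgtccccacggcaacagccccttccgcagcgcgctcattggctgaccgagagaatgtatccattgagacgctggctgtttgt
Spred1, chr2:117120821-117121070, strand +: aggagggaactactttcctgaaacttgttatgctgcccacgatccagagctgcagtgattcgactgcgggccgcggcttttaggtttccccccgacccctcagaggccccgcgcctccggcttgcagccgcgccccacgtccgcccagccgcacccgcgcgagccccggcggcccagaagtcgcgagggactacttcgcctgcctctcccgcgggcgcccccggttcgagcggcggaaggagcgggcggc
The Dusp1 window held 1 full CRE, starting 143 bases before the start, and 3 cores at 191, 143 and 140 bases, of which the last 2 lie within that CRE on opposite strands. A full CRE was present in 1.56% of the 32536 promoter windows of this length and a core in 17.9%. The Dusp5 window held 2 CArG boxes next to each other, at 82 and 72 bases, and a core at 55 bases. A CArG box was present in 1.48% of all windows. The Dusp16 window held a core at 70 bases. That window (chr6:134792629-134792878, strand -) lies inside the gene, which reaches to 134807063, so it precedes an inner annotated start. It is counted among the 8 windows below. In Dusp6, Spred1, Spry1, Spry2 and Dusp2 none of these letters were found. The AP-1 site (TGANTCA, with C or G as N), a longer ETS site (CCGGAA) and the κB site were in 0 of the 8 windows. They were in 4.45%, 12.1% and 7.28% of all windows. The GC box (GGGCGG) was in 6 of 8, against 33.0%. The shorter ETS core GGAA was not counted, and it occurs in the printed windows of Dusp5, Dusp6 and Spred1. A match is a description of the sequence and not a binding site.

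Between anti-Act1 and WT macrophages, Dusp4 and Dusp1 were higher, Spred1 was lower, and Dusp2, Dusp5, Dusp6, Dusp16 and Spry2 did not pass the test. Spry1 had too few counts to be tested. The test was edgeR's quasi-likelihood F test with Benjamini-Hochberg adjustment over 12494 genes, all p-values are two-sided, and a gene is called here at an adjusted p under 0.05. Among all genes tested, 10.9% were called higher and 9.76% lower, 20.7% in all, against 3 of the 8 tested members. With so few genes nothing particular to the members is read from these counts. Their median log2 fold change was −0.08, beside 0.00 over all genes tested. In bulk RNA, fewer cells with a transcript and less transcript per cell cannot be told apart.

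**Figure D1:**
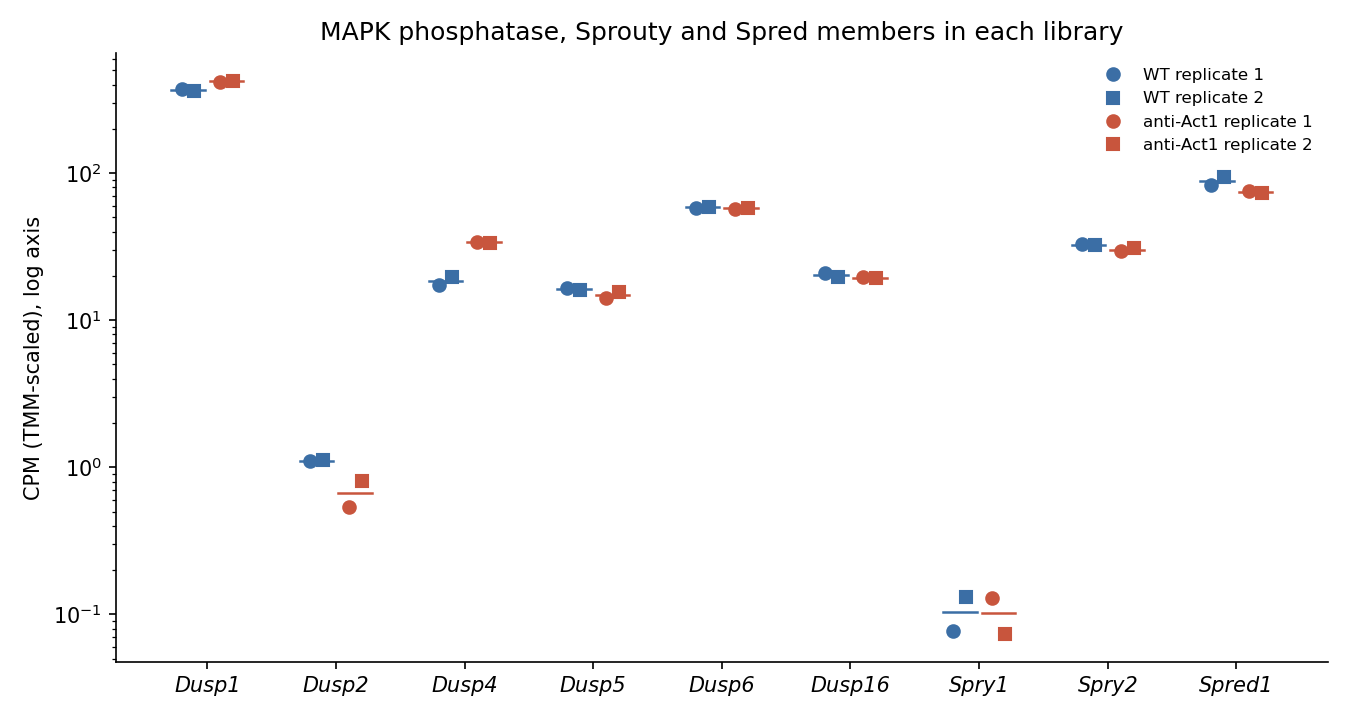
CPM (TMM-scaled, log axis) of the 9 members in the 4 libraries; points are libraries (blue, WT; red, anti-Act1; circles, replicate 1; squares, replicate 2) and lines are means of 2 libraries. Dusp4 is at 17.3 and 19.7 CPM in WT and at 34.2 and 33.4 CPM in anti-Act1, while the points of Dusp6 lie within 57.2 to 59.0 CPM.

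Dusp4 encodes MKP-2, a nuclear phosphatase that can act on ERK, JNK and p38 and is itself induced by ERK. It was at 17.3 and 19.7 CPM in WT macrophages and at 34.2 and 33.4 CPM in anti-Act1 macrophages. Both anti-Act1 libraries lay above both WT libraries, and the distance between the groups was several times that between replicates. The fold was 1.82 (95% interval 1.64 to 2.02; log2 fold change 0.87, SE 0.07, edgeR adjusted p = 4.76e-13). Of the 1366 genes called higher, 210 had a larger change. All 13 alternatives of processing or left-out libraries kept this call, with log2 fold changes from 0.77 to 0.96.

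Dusp1 encodes MKP-1, a nuclear phosphatase that prefers p38 and JNK over ERK. It was at 371 and 359.9 CPM in WT and at 419 and 425 CPM in anti-Act1. The groups did not overlap, but the difference was small: the fold was 1.15 (95% interval 1.08 to 1.24; log2 fold change 0.21, SE 0.05, edgeR adjusted p = 0.00164). Of the 1366 genes called higher, 1080 had a larger change than Dusp1. Of the 13 alternatives, 12 kept the call, and the unfiltered limma fit of log2(FPKM + 1) gave an adjusted p of 0.0551. In GENCODE M21, 11 of the 3311 exon bases of Dusp1 overlap the gene Ergic1 on the opposite strand, and Ergic1 itself was at 0.05 on the log2 scale (edgeR adjusted p = 0.582).

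Dusp16 encodes MKP-7, which prefers JNK and p38. Its libraries were at 20.8 and 19.5 CPM in WT and at 19.6 and 19.4 CPM in anti-Act1, so that the groups overlapped. The interval of its fold, 0.866 to 1.08, left room for a small change either way (log2 fold change −0.05, edgeR adjusted p = 0.737).

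Dusp2, which encodes PAC-1, a nuclear phosphatase first known from activated T cells, was scarce. It had 71 and 85 counts in WT and 33 and 44 counts in anti-Act1, that is 1.10 and 1.12 CPM against 0.534 and 0.806 CPM. Both anti-Act1 libraries lay below both WT libraries, yet the fold of 0.601 had a wide interval, 0.371 to 0.972, and an edgeR adjusted p of 0.132 (unadjusted p = 0.0386). The log2 fold change of −0.73 became −0.46 when anti-Act1 replicate 1 was left out and −1.05 when replicate 2 was, and no alternative called it.

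Dusp5 and Dusp6 encode phosphatases specific for ERK, the first nuclear and the second (MKP-3) cytoplasmic, and both are classical transcriptional readouts of ERK. Dusp6 was at 58.0 and 59.0 CPM in WT and at 57.2 and 58.1 CPM in anti-Act1. Its groups overlapped, and the fold was 0.986 (95% interval 0.908 to 1.07, edgeR adjusted p = 0.852). Dusp5 was at 16.5 and 16.1 CPM in WT and at 14.1 and 15.4 CPM in anti-Act1. Its anti-Act1 libraries were the lower ones without passing the test (fold 0.908, 95% interval 0.803 to 1.03, edgeR adjusted p = 0.287). In GENCODE M21, 547 of the 2473 exon bases of Dusp5 overlap an antisense transcript, and the library kit as named does not mark strand, so reads there cannot be told apart.

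**Figure D2:**
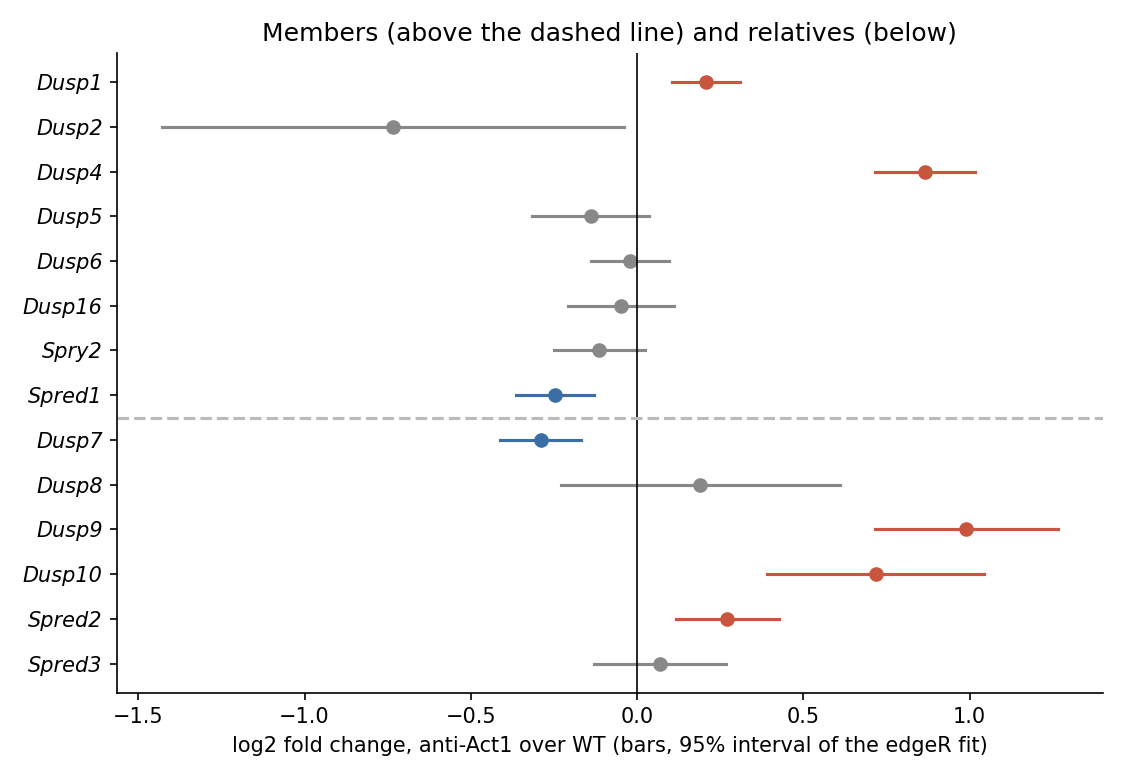
Log2 fold change of anti-Act1 over WT for the 8 tested members and, below the dashed line, for their tested relatives; bars are 95% intervals of the edgeR fit, red is called higher, blue called lower and grey not called. Dusp4 (0.87), Dusp9 (0.99) and Dusp10 (0.72) stand to the right of 0, and the interval of Dusp6 runs from −0.14 to 0.10.

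Sprouty proteins restrain the passage from receptor tyrosine kinases to ERK, and Spred1 does so by bringing neurofibromin, a brake on RAS, to the membrane. Spred1 was at 82.9 and 93.9 CPM in WT and at 75.8 and 73.2 CPM in anti-Act1. The groups did not overlap, although the WT libraries stood further apart than the anti-Act1 libraries. The fold was 0.843 (95% interval 0.777 to 0.915; log2 fold change −0.25, SE 0.06, edgeR adjusted p = 0.00131). Without WT replicate 2 the log2 fold change was −0.15 and the call was lost (edgeR adjusted p = 0.0898), while without WT replicate 1 it was −0.33.

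Spry2 was at 33.0 and 32.3 CPM in WT and at 29.5 and 31.0 CPM in anti-Act1. The anti-Act1 libraries were again the lower ones, but the fold of 0.924 (95% interval 0.841 to 1.02) did not pass the test (edgeR adjusted p = 0.264). Spry1 had 5 and 10 counts in WT and 8 and 4 counts in anti-Act1, near the limit of 3 counts that a count of 0 allows, so no difference was detectable at this depth. Such limits cover counting error only. Counted over the tested members, 6 of 8 did not overlap between groups, beside 57.1% of all genes tested, since groups of 2 libraries often separate. For one gene, exact permutation of 2 and 2 libraries gives no p below 0.333, so the p-values here come from the model across genes.

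Levels were compared between members per gene length, with the FPKM values deposited by the authors. Dusp1 was by far the most abundant at 192 and 187 FPKM in WT and 215 and 216 FPKM in anti-Act1. It made up 79.4% to 80.8% of the summed FPKM of the 6 member phosphatases in the 4 libraries. In WT macrophages the order after Dusp1 was Spred1 and Dusp6, whose libraries overlapped, then Dusp5, Spry2, Dusp4, Dusp16, Dusp2 and Spry1. In anti-Act1 macrophages Dusp4 stood above Dusp5 and Spry2, and Spred1 stood below Dusp6 with no overlap of their libraries. Dusp4 moved from 7.18 and 8.22 FPKM to 14.1 and 13.6 FPKM, and Dusp5 was at 14.3 and 14.1 FPKM in WT and 12.2 and 13.2 FPKM in anti-Act1.

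**Figure D3:**
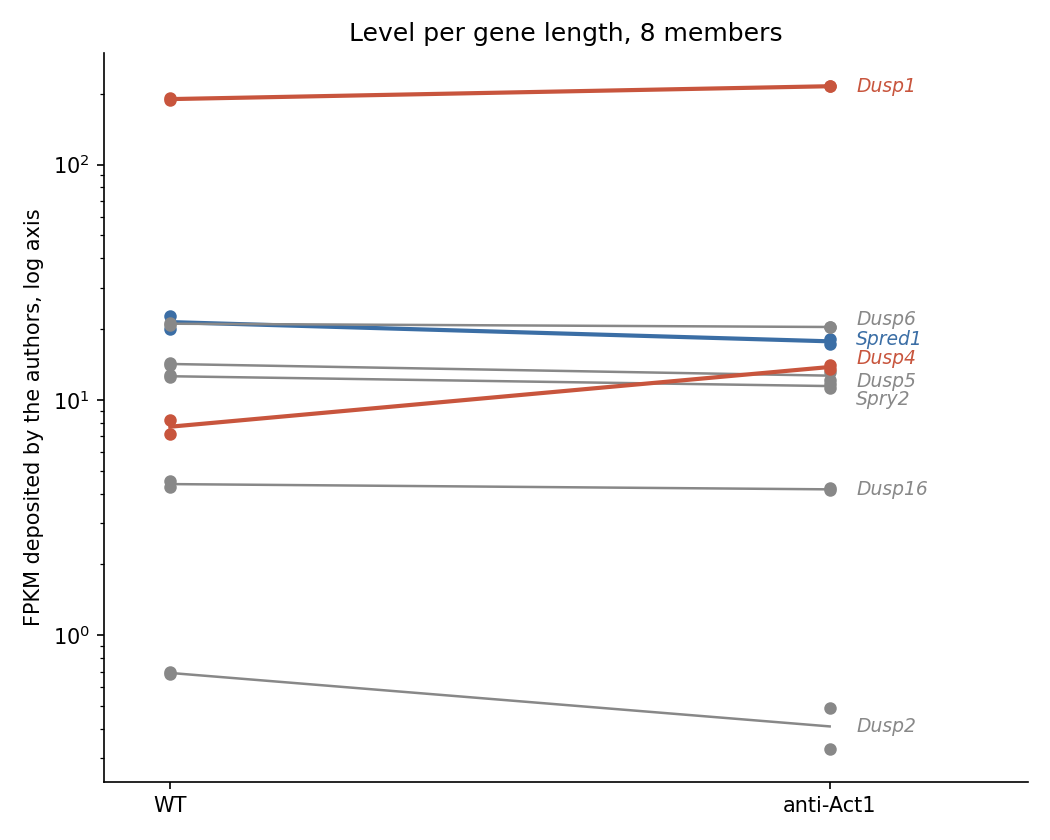
Deposited FPKM (log axis) of 8 members in WT and anti-Act1 macrophages; points are libraries, lines join the means of 2 libraries, and red, blue and grey mark called higher, called lower and not called by edgeR on counts. The line of Dusp4 crosses those of Dusp5 and Spry2, and Dusp1 stays above all others at 187 FPKM or more; Spry1, below 0.06 FPKM, is left out.

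A ratio of FPKM values within a library does not depend on how libraries are scaled. The ratio of Dusp4 to the ERK phosphatase Dusp6 was 0.344 and 0.386 in WT and 0.689 and 0.663 in anti-Act1. Against Spred1, Dusp4 was at 0.358 and 0.360 in WT and at 0.773 and 0.783 in anti-Act1. The ratio of Dusp1 to Dusp6 went from 9.22 and 8.79 to 10.6 and 10.5. These ratios show unequal change between the members and not that one of them stood still. The gene length behind the FPKM of Dusp5, recovered from the tables, was 1155 bases, shorter than the 2473 exon bases in GENCODE M21. Its place in the order thus depends on the gene model used. For Dusp1 the length was 1942 bases, against 3311 exon bases, so its level and its share of the summed FPKM depend on the gene model too.

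Of the 4 other MAPK phosphatases, 2 were called higher, 1 lower and 1 was not called. Dusp10 encodes MKP-5, which acts on JNK and p38, and it rose from 2.91 and 3.11 CPM in WT to 4.42 and 5.51 CPM in anti-Act1, a log2 fold change of 0.72 (SE 0.16) with an edgeR adjusted p of 0.000716. Dusp10 kept its call in 12 of 13 alternatives and lost it in the unfiltered limma fit (0.41, adjusted p = 0.0625). Dusp9, which encodes the ERK phosphatase MKP-4 and lies on the X chromosome, rose from 3.73 and 4.06 to 7.55 and 7.95 CPM, which is 0.99 on the log2 scale (SE 0.14, edgeR adjusted p = 1.49e-07). Dusp7, which encodes a cytoplasmic ERK phosphatase close to Dusp6, fell from 62.4 and 63.2 to 49.2 and 53.7 CPM, or −0.29 on the log2 scale (SE 0.06, edgeR adjusted p = 0.000253). Without anti-Act1 replicate 1 the adjusted p of Dusp7 was 0.0556.

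Dusp8, a phosphatase for JNK and p38, was at 2.12 and 2.16 CPM in WT and at 2.17 and 2.73 CPM in anti-Act1 and did not pass the test (edgeR adjusted p = 0.592). So, of the 10 genes of this family, 4 were called higher, 1 lower and 5 not called, beside 10.9% higher and 9.76% lower over all genes tested. Of the ERK phosphatases, Dusp9 rose, Dusp7 fell, and Dusp5 and Dusp6 did not pass, so these did not move in one direction. Of those described above as acting on or preferring JNK and p38, Dusp1 and Dusp10 were higher, and Dusp8 and Dusp16 did not pass. Of 15 atypical dual-specificity phosphatases, 11 were tested, and Dusp3 alone was called, lower with a log2 fold change of −0.16. Its call was lost under 4 of 13 alternatives, among them leaving out WT replicate 2 or either anti-Act1 replicate. Among the Sprouty relatives, Spred2 was higher at 24.1 and 25.8 CPM against 21.6 and 19.8 CPM (log2 fold change 0.27, edgeR adjusted p = 0.00745), opposite in sign to Spred1, although 5 of 13 alternatives lost the call, among them those without WT replicate 2 (0.21, adjusted p = 0.111) and anti-Act1 replicate 2 (0.22, adjusted p = 0.132). Spred3 was at 0.07 on the log2 scale (edgeR adjusted p = 0.698), Spry4 had 1 count in one library, and Spry3 was not analysed here.

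The genes of the kinase cascades that these phosphatases and inhibitors act on are given next, to be read beside the 20.7% of all genes tested that were called. Of 25 RAS-ERK genes tested, 2 were higher and 4 lower, with a median log2 fold change of −0.02. Mapk3, which encodes ERK1, was at 0.04 on the log2 scale and was not called (edgeR adjusted p = 0.665). The 2 higher genes were Ksr1, a scaffold for RAF and MEK (0.31), and Map2k1, which encodes MEK1 (0.26, SE 0.05, edgeR adjusted p = 8.57e-05). Lower genes included Rasa1, a GTPase-activating protein that turns RAS off (−0.40), and the ERK-activated kinases Rps6ka3 (−0.24) and Rps6ka1 (−0.22). Leaving out anti-Act1 replicate 2 ended the calls of Ksr1 and Rps6ka3, and leaving out anti-Act1 replicate 1 that of Rps6ka1.

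Of 13 JNK genes tested, Mapk8ip3, a JNK scaffold, was higher (0.19) and Map3k5, which encodes the stress kinase ASK1, was lower (−0.49, SE 0.08, edgeR adjusted p = 6.87e-06). The median of the list was −0.01. The JNK genes Mapk8 and Mapk9 had log2 fold changes of 0.04 and 0.06 and were not called. Mapk8ip3 lost its call when WT replicate 2 or anti-Act1 replicate 1 was left out. Of 16 p38 genes tested, 2 were higher, Map2k6, which encodes the p38 kinase MKK6 (0.70), and Rps6ka4, which encodes MSK2 (0.18). The 3 lower p38 genes were Mknk1, which encodes MNK1 (−0.30), Map3k3 (−0.14) and Mapk14, which encodes p38α (−0.14, edgeR adjusted p = 0.0421). Both Map3k3 and Mapk14 lost their call with the replicate block, with adjusted p-values of 0.0750 and 0.0808. The calls of Map3k3, Mapk14 and Rps6ka4 were also lost when either anti-Act1 replicate was left out, those of Map3k3 and Rps6ka4 without WT replicate 2, and that of Mapk14 without WT replicate 1.

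**Figure D4:**
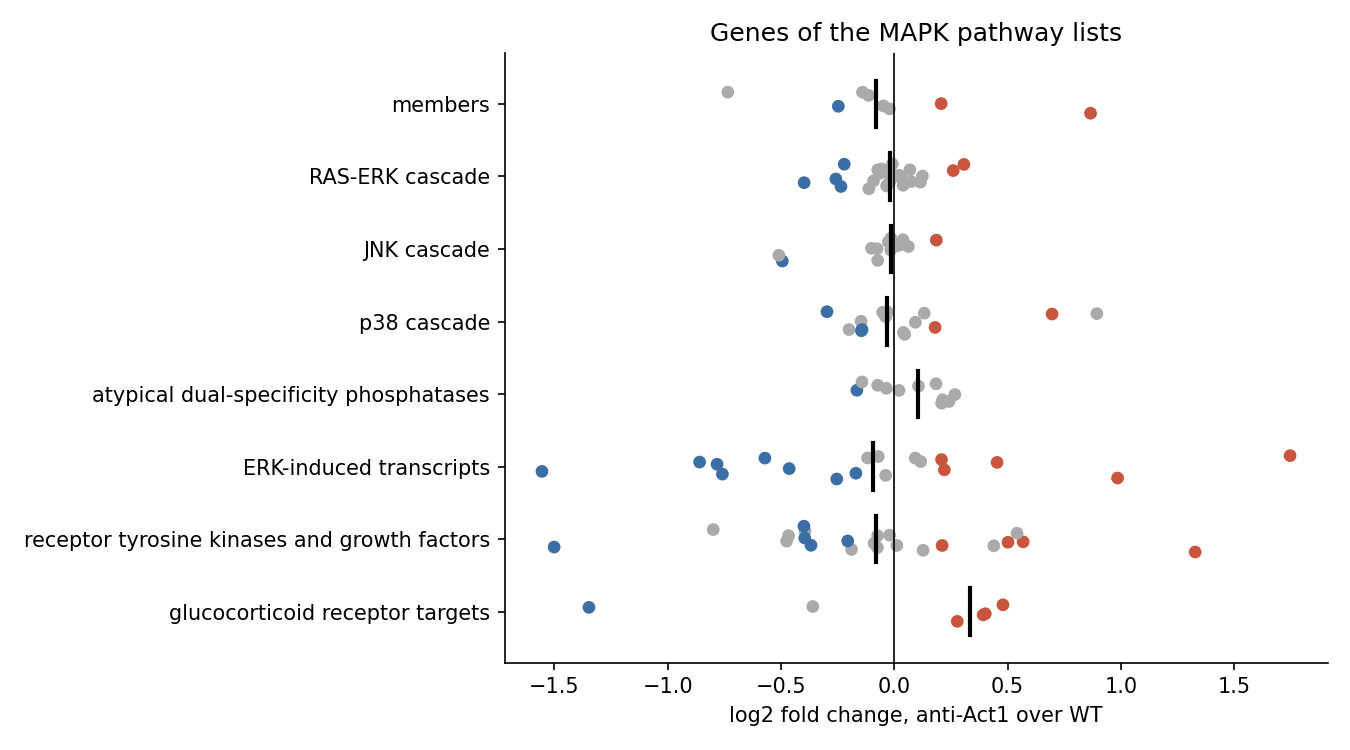
Log2 fold change of anti-Act1 over WT for the tested genes of each list (points; red, called higher; blue, called lower; grey, not called; black bars, medians). The 3 kinase cascades have medians of −0.02, −0.01 and −0.03, while the ERK-induced transcripts reach from Ccnd1 at −1.55 to Fosl1 at 1.75.

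Transcripts known to be induced by ERK, other than the members, went both ways. Of 18 tested, 5 were higher and 8 lower, beside 20.7% called over all genes tested, and the median was −0.09. Ccnd1, the cyclin that drives entry into the cell cycle, fell from 13.1 and 13.5 CPM to 4.13 and 4.93 CPM, or −1.55 on the log2 scale (SE 0.12, edgeR adjusted p = 9.11e-15). Lower too were the transcription factors Fosb (−0.86), Egr2 (−0.78), Myc (−0.76) and Etv5, which encodes an ETS factor read as an ERK output beside Dusp6 (−0.57, SE 0.07, edgeR adjusted p = 1.98e-08). Egr1 (−0.46, edgeR adjusted p = 3.64e-06) and Fos (−0.25, edgeR adjusted p = 0.000107) were called lower as well. Higher were Etv1, another ETS factor (0.99), Ier3 (0.45), Errfi1, an inhibitor of the EGF receptor (0.22), and Junb (0.21). Errfi1 lost its call under 10 of 13 alternatives, among them those without WT replicate 2 and without either anti-Act1 replicate. Fosl1, with 15 and 9 counts in WT and 38 and 30 counts in anti-Act1, was also called higher (edgeR adjusted p = 0.0127), but 3 of the 4 fits with 1 library left out lost it: without WT replicate 2 and without either anti-Act1 replicate. It was named after its value was seen.

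Dusp1 is also a known target of the glucocorticoid receptor, so the targets of that receptor are given beside it. Of 6 such genes, against the same 20.7%, 5 were called and 4 of them were higher: Tsc22d3, which encodes GILZ (0.48), Klf9 (0.40), Sgk1 (0.39) and the clock gene Per1 (0.28). Zbtb16 was lower, from 3.30 and 2.23 CPM to 1.18 and 0.971 CPM (−1.35), and Fkbp5 was at −0.36 and was not called. The list thus did not move as one.

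Receptor tyrosine kinases and growth factors, the inputs on which Sprouty and Spred proteins act, were also mixed, with 4 of 22 tested genes higher and 5 lower, again beside 20.7% called over all genes. Csf1r, the M-CSF receptor, was at −0.07 on the log2 scale (edgeR adjusted p = 0.317), while its ligand gene Csf1 was higher (0.57). Met, the receptor for hepatocyte growth factor, rose from 8.50 and 8.76 to 21.9 and 21.5 CPM (1.33, SE 0.09, edgeR adjusted p = 1.59e-16), and Fgfr1 (0.50) and Vegfa (0.21) were higher. Axl, a receptor for the apoptotic cell bridge Gas6, fell from 88.6 and 89.0 to 30.3 and 32.5 CPM (−1.50, SE 0.06, edgeR adjusted p = 8.39e-25). Its relative Mertk (−0.40), Igf1 (−0.39), Hgf, the ligand of Met (−0.37), and Pdgfb (−0.21) were lower too, and Pdgfb lost its call when WT replicate 1 or anti-Act1 replicate 2 was left out. Phosphorylation of ERK, JNK and p38 was not measured in these libraries.

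**Figure D5:**
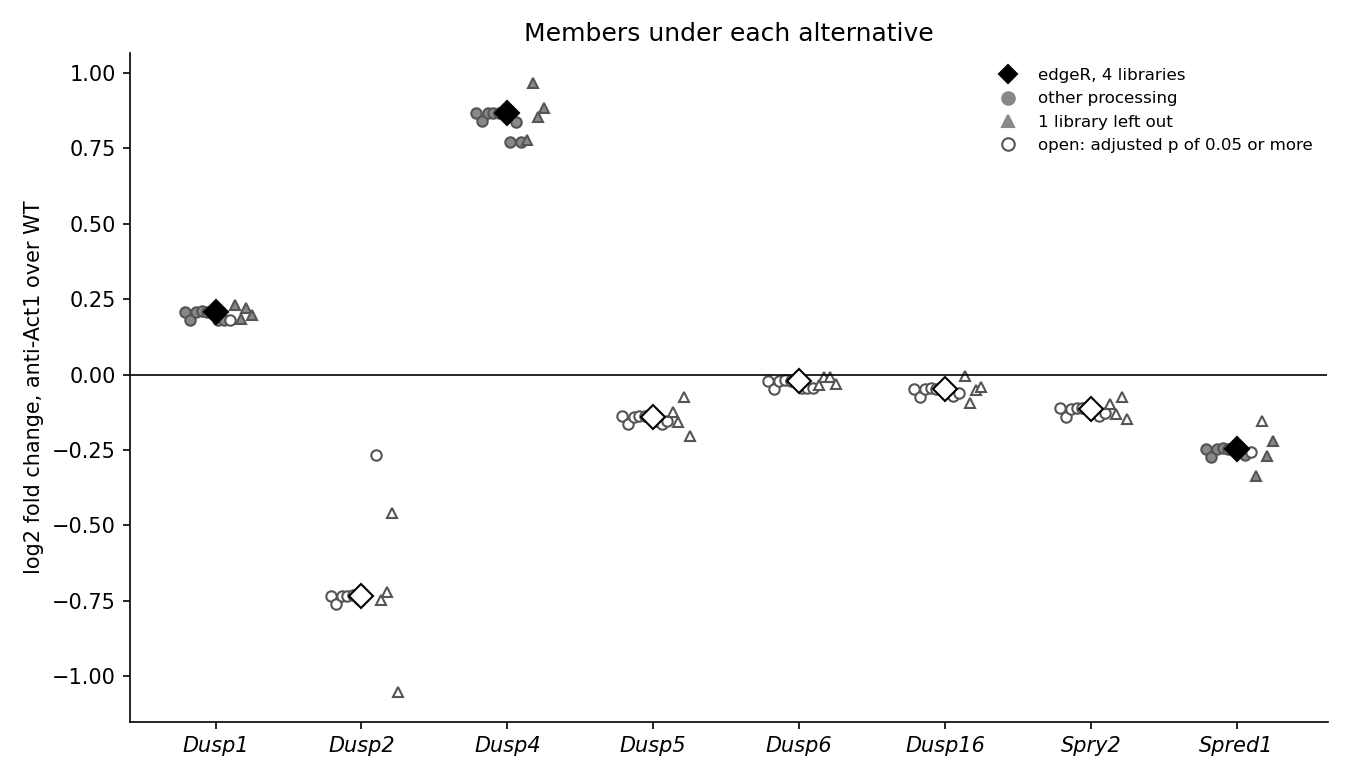
Log2 fold change of the 8 tested members under the main test (diamonds), other processing (circles) and with 1 library left out (triangles); open symbols have an adjusted p of 0.05 or more. Dusp4 stays between 0.77 and 0.96 with every symbol filled, Spred1 has open symbols at −0.15 and −0.26, and Dusp2 ranges from −1.05 to −0.27.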

How the data were processed

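RNA was sequenced from 4 macrophage libraries, 2 WT and 2 anti-Act1. The authors removed adapter, poly-N and low-quality reads, aligned 150 bp read pairs with TopHat and deposited whole counts per gene without normalization. The submitters' processing notes also name HTSeq 0.6.1 and Bowtie 0.12.2, and the builds mm8 and mm10, without a role; the annotation is not given in the sources used here. The authors deposited FPKM values as well, each a count over a gene length and its library's total.

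Counts were tested with edgeR 4.0.16 (TMM, filterByExpr, condition only, glmQLFit and glmQLFTest, Benjamini-Hochberg over all genes tested). SE and 95% intervals came from that fit. Alternatives were DESeq2 1.42.0 after the same filter, limma 3.58.1 on log2 of FPKM, other normalizations and filters, a replicate block and each library left out. All tools were tested on simulated data with larger changes than those of Dusp1 and Spred1. That run checked that the tools work and does not bear on the calls of small changes. The methods speak of 2 biological replicates per condition. Replicates differed by more than sampling noise (chi-square per degree of freedom 10.8 in WT and 7.39 in anti-Act1).

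The members and lists were chosen with earlier results of these data known. Named were all members and their closest relatives, and in other lists up to 5 called rises and 5 falls with a mean of at least 1 CPM. Mapk3, Mapk8, Mapk9, Csf1r, Egr1, Fos, Fkbp5, Fosl1 and Ergic1 were named outside this rule, with their values seen. Some genes that the rule would name are not reported here. Promoters came from RefSeq (GRCm38.p6) and exon overlaps from GENCODE M21.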

Additional observations from a re-analysis of the deposited data

How the results depend on the processing

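Over 13 alternatives, Dusp4 kept its direction and its call throughout, and Dusp2, Dusp5, Dusp6, Dusp16 and Spry2 kept their direction without being called where they were tested. Dusp2 was not tested in the filtered limma fits. Limma on log2(FPKM + 1) without a filter moved most: 583 genes higher and 509 lower, 1 member higher and 0 lower, 10 pathway genes higher and 14 lower, with Dusp1 at 0.18 (adjusted p = 0.0551) and Spred1 at −0.26 (adjusted p = 0.111). Limma on log2(FPKM + 0.1) gave 910 genes higher. With each library left out in turn, 741 to 1208 genes were lower (742 without anti-Act1 replicate 1, 741 without anti-Act1 replicate 2), 0 to 1 members were lower (0 without WT replicate 2), and Spred1 was between −0.33 and −0.15; the lone library of a group was assumed to vary like the other group. What same-numbered libraries share across the groups is not given in the labels. Their deviations from the group means correlated at −0.03, and 2 libraries per group cannot decide whether they shared a batch. With the replicate number as a block, 1293 genes were higher and 1113 lower, Dusp4 was at 0.87, Dusp1 at 0.21 and Spred1 at −0.24, and 2 members were higher and 1 lower; among pathway genes, 20 were higher and 22 lower, since Errfi1, Map3k3 and Mapk14 lost their call. The cause of these shifts was not tested. Spry1, with 4 to 10 counts a library, was too scarce to be tested.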
